A study of Mus musculus with 9 samples.

Results

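The genes of glycolysis and glycogen metabolism were followed in quadriceps femoris, a thigh muscle, through 34 listed genes that cover glucose uptake, the glycolytic enzymes, the lactate and glycerol phosphate dehydrogenases, and the enzymes that store and release glycogen. Each gene was read by the probe set that the platform annotation assigns to it alone and that had the highest mean over the 9 arrays. Of the 34 genes, 30 had such a probe set and 28 lay above a log2 value of 5 in at least 3 arrays, among 9697 genes tested in all. Ppp1r3a, a muscle subunit that brings protein phosphatase 1 to glycogen, lay between 2.44 and 2.64 in every array, and Pgm2 between 4.25 and 5.30, so neither was tested. Gpi1, Eno1 and Pfkfb1 were not analysed here, and Gapdh was named alone only by the array's control probe sets.

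All 9 mice were females with the strain label C57Bl/6 HT transgenic, from a study of a self MHC class I protein overexpressed in muscle once the antibiotic doxycycline is withdrawn. Late mice (n = 3) lost the drug at 35 days of age and were killed at 50 days. Early mice (n = 3) lost it at 21 days and were killed at 35 days. Control mice (n = 3) stayed on the drug and were killed at 35 days; the protocol describes them as littermates with a single transgene, although their strain label equals that of the other groups. Late mice were thus 15 days older than both other groups, and age and late induction cannot be told apart. The promoter that drives the transgene is not given in the sources used here. H2-K1, a class I gene, stood at 14.20, 13.11 and 14.31 in the late arrays and at 14.67, 14.63 and 14.69 in the early arrays, against 10.88, 10.47 and 10.21 in the control arrays, so it was high in all 6 induced arrays. Values are GCRMA log2 expression. Differences are log2 differences of group means with the standard error (SE) of the limma fit, and adjusted p values are from that fit with Benjamini-Hochberg adjustment over the 9697 genes.

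Skeletal muscle takes up glucose through the insulin-responsive transporter Slc2a4, traps it by phosphorylation, and either burns it through glycolysis or stores it as glycogen. During contraction, calcium and hormone signals act on phosphorylase kinase, a complex of catalytic and regulatory subunits, which switches on glycogen phosphorylase and so feeds glucose units into glycolysis. Fast fibres are rich in these enzymes, and the muscle forms of many of them are encoded by genes of their own.

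The early arrays were not alike. Across the 9697 genes, early 1 and early 2 correlated at 0.977 with each other, and at 0.934 and 0.958 with early 3, while early 3 correlated at 0.975 to 0.983 with the control arrays and at 0.944, 0.959 and 0.979 with late 1, 2 and 3. Among the late arrays, late 1 correlated at 0.962 and 0.959 with late 2 and 3, which correlated at 0.984 with each other. The sample titles give early 3 and late 3 consecutive code numbers, and late 1 and late 2 consecutive ones of another range; what the codes stand for is not stated there. In 18 of the 28 genes tested, early 1 and early 2 both lay below early 3, an order found in 35.6% of all genes, and in 8 both lay above it, against 40.1%. The median SD within a group was 0.126 for these 28 genes in late, 0.316 in early and 0.0902 in control mice, against 0.223, 0.273 and 0.148 for all genes. Counts of calls in comparisons with the early group are therefore given with and without early 3, as are the values of single genes where leaving it out changed the call. Early 3 was singled out on these same data, so leaving it out tends to narrow the early spread, and it leaves 2 early arrays. The p values without early 3 are thus descriptive only and are no support for a difference. The 13 fast fibre markers checked were all above the floor of 5, and their summed level, as log2 of the summed linear values, ran from 19.06 to 19.15 in late, from 18.89 to 19.07 in early and from 19.06 to 19.18 in control arrays. All 9 slow fibre markers were above the floor too, but their sum ran from 12.96 to 16.17 in late, from 12.16 to 15.48 in early and from 12.54 to 13.99 in control arrays. All 4 T cell markers were below the floor. In whole muscle, fewer cells of a type and less RNA per cell cannot be told apart. RNA quality was similar: the 3' minus the 5' control probe set of Gapdh lay between -0.18 and 0.02 log2 in all arrays.

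**Figure D1:**
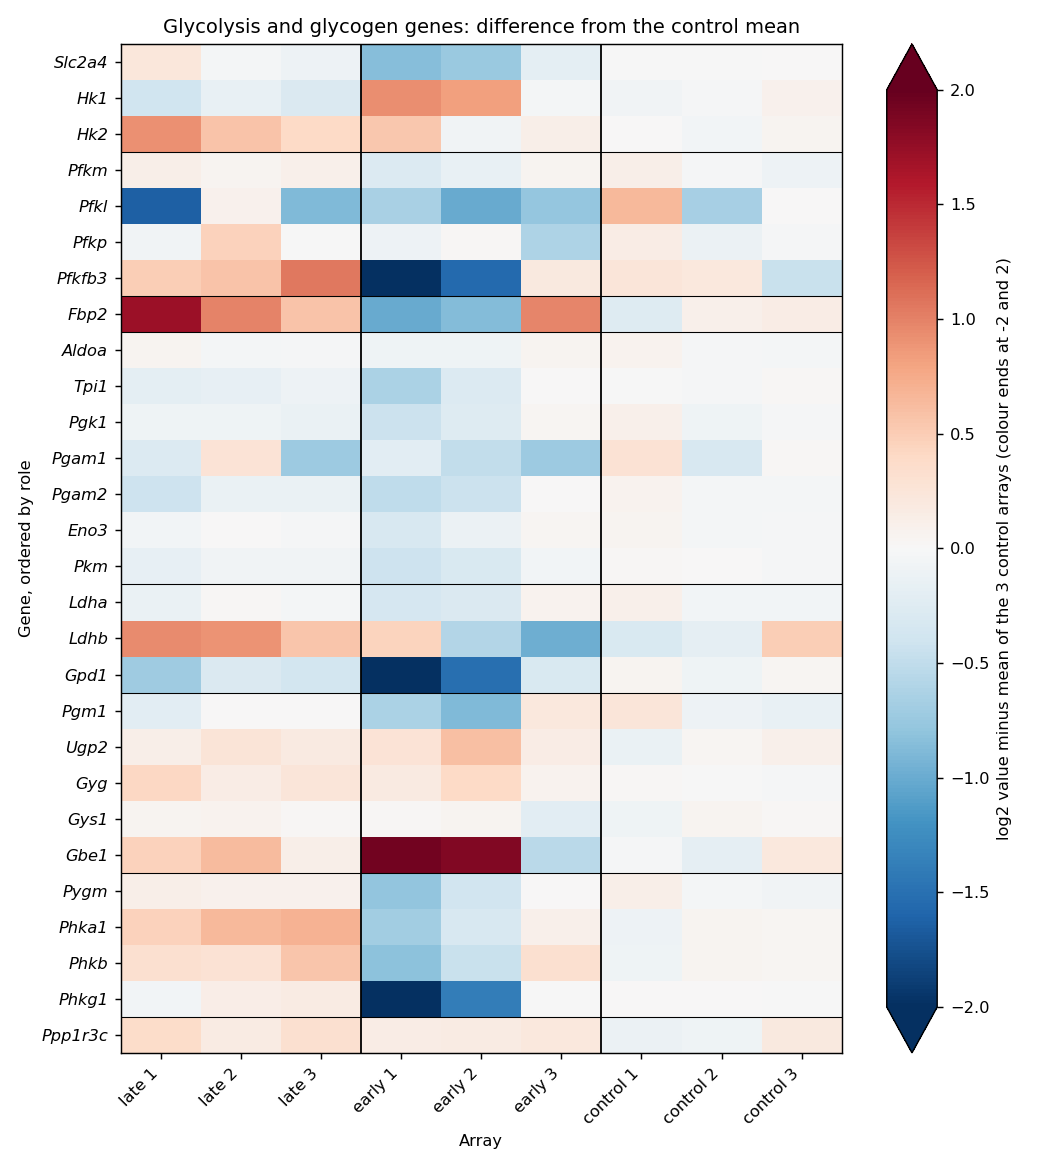
Difference of each of the 28 tested genes (rows, ordered by role) from the mean of the control arrays, in log2 units, for each array (columns: late, early, control). Early 1 and early 2 hold the darkest blue cells (Phkg1, Pfkfb3, Gpd1) and the red cells of Gbe1 and Hk1, whereas early 3 is pale for most of these genes.

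Between late and early mice most members had differences of the same sign, and 1 of them passed the test. In late against early mice 24 of the 28 genes had a higher mean in late muscle, with a median difference of 0.18, against 53% of all genes and a median of 0.03. The mean was also higher in late mice for 10 of 13 fast fibre, 7 of 9 slow fibre and all 5 tested adipocyte markers. So it was for 4 of 5 endothelial markers, and for all 4 tested markers of smooth muscle and pericytes and of Schwann cells. It was higher for 1 of 9 macrophage and 4 of 8 satellite cell and myoblast markers. The part of these lists in the members' values was not tested. Of the 28, 1 gene was called at an adjusted p under 0.05 (Phka1, higher), where 11.5% of all genes were called. In the same direction 6.23% of all genes were called. The groups did not overlap for 6 of the 28, against 32.1% of all genes. Of these, 5 were higher and 1 lower in late muscle, against 18.3% and 13.7% of all genes, and 9 of the 28 had an unadjusted p under 0.05, against 34.2%. Without early 3 the count called was 11 of 28, 9 higher and 2 lower, where 30.5% of all genes were called, 14.7% higher and 15.9% lower. Without early 1 instead, 1 was called, where 2.21% of all genes were. Without early 2, 0 were called, where 1.65% of all genes were.

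In early against control mice 22 of the 28 genes had a lower mean in early muscle (median -0.28, against -0.03 for all genes). Beside this, all 4 Schwann cell markers tested had a lower mean in early than in control mice (median -0.82), with a summed level of 11.35 to 11.69 in early and 12.15 to 12.54 in control arrays. All 4 smooth muscle and pericyte markers tested did too (median -0.47), with a summed level of 12.89 to 13.39 in early and 13.43 to 13.71 in control arrays. So did all 13 fast fibre (median -0.13), all 5 tested adipocyte (-0.98) and all 5 endothelial markers (-0.26). The median difference of the fast fibre markers from the control mean was -0.28, -0.12 and 0.001 in early 1, 2 and 3. For the members it was -0.38, -0.30 and 0.03. All 9 tested macrophage markers were higher in early mice (median 0.49), as were 5 of 9 slow fibre and 4 of 8 satellite cell and myoblast markers. The part of any list in the members' values was not tested. None of the 28 was called by limma, where 1.19% of all genes were called, and 5 had an unadjusted p under 0.05, a share close to the 18.5% of all genes. The groups did not overlap for 5 of the 28, against 23.6% of all genes. Of these, 2 were higher and 3 lower in early muscle, against 9.63% and 13.9% of all genes. Without early 3 the count called was 9 of 28, 2 higher and 7 lower, where 18.1% of all genes were called, 9.96% higher and 8.15% lower. Without early 1 or early 2 instead, 0 were called, where 0.639% and 0.227% of all genes were. In late against control mice the median was 0.07 (0.01 for all genes), and 0 of 28 were called by limma, where 0.206% of all genes were; 2 had an unadjusted p under 0.05, against 17.3% of all genes. Late and control arrays nevertheless did not overlap for 13 of the 28 genes, 8 higher and 5 lower in late muscle, against 31% of all genes, 16% higher and 14.9% lower.

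**Figure D2:**
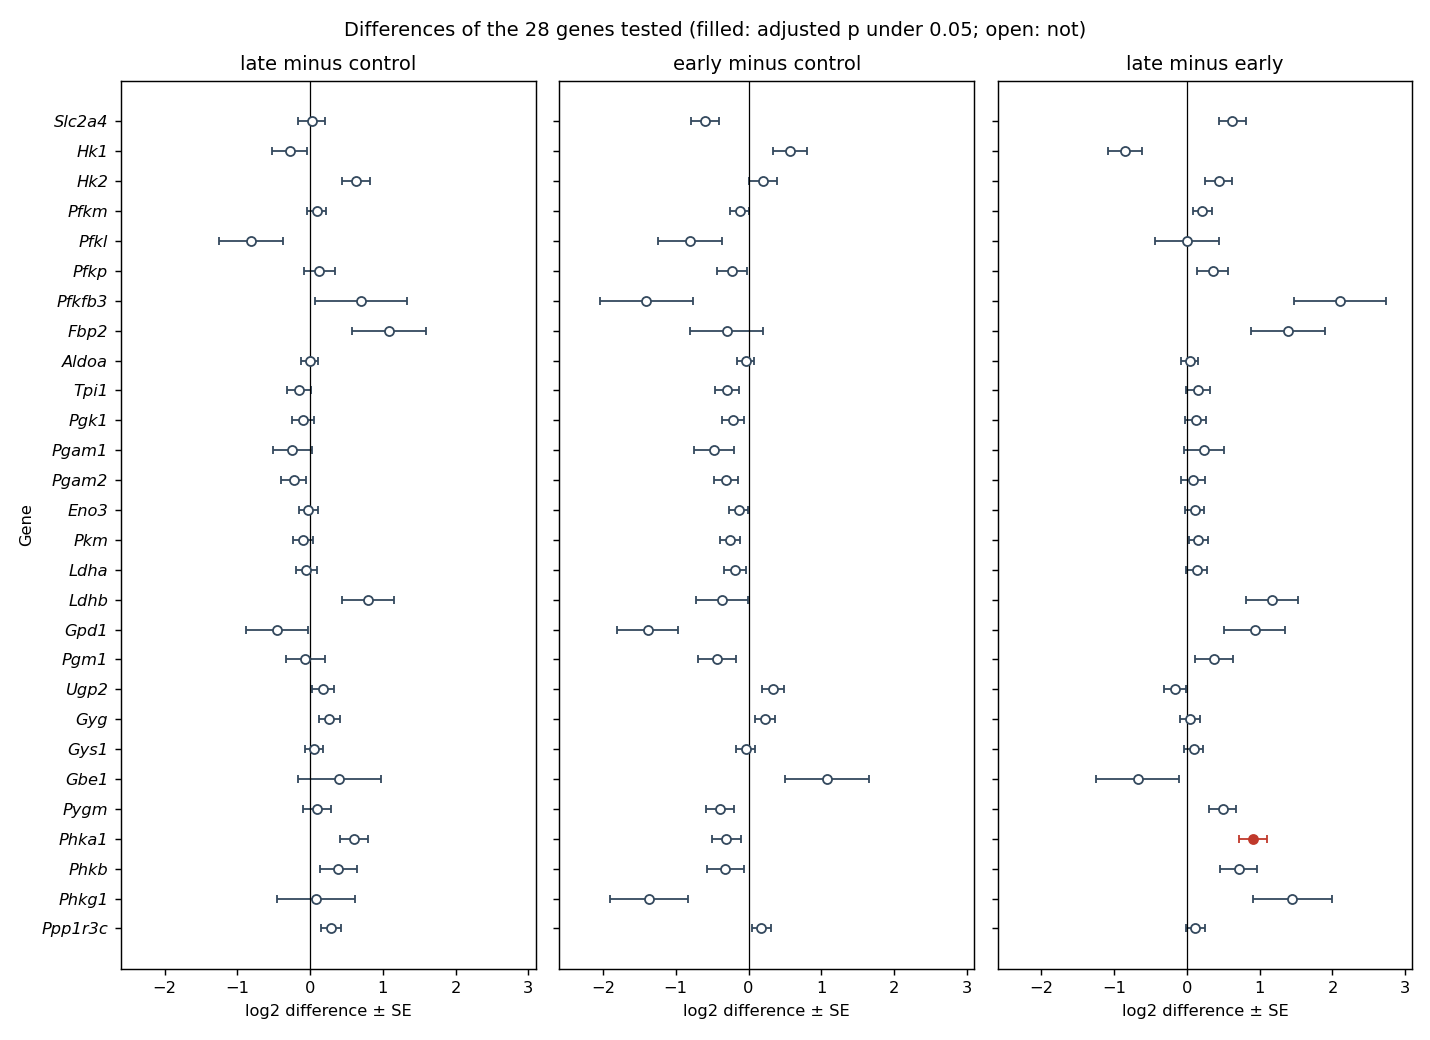
Log2 difference with its SE for each of the 28 genes in late minus control, early minus control and late minus early (n = 3 arrays per group). Phka1 in late minus early is the single filled point; most early minus control points lie left of 0 and most late minus early points right of it.

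Glycogen breakdown held the one gene called. The 3 listed subunits of phosphorylase kinase were Phka1, the muscle regulatory alpha subunit, Phkb, the regulatory beta subunit, and Phkg1, the muscle catalytic subunit. Phkg2 and Phka2, subunits outside the list, were tested too. Phkg2 stood at 6.84, 6.39 and 6.51 in late and at 7.92, 6.98 and 7.14 in early arrays. Control arrays gave 6.90, 6.86 and 6.86. Its late minus early difference was -0.77 ± 0.24 (adjusted p = 0.0691), opposite in sign to the listed subunits. That of Phka2 was 0.34 ± 0.22 (adjusted p = 0.299). Neither passed, and values without early 3 are not given for them. Phka1 stood at 12.34, 12.53 and 12.57 in late 1, 2 and 3, at 11.19, 11.56 and 11.97 in early 1, 2 and 3, and at 11.77, 11.94 and 11.92 in control 1, 2 and 3. Every late array was above every array of both other groups, while early 3 fell just above the control range. Phka1 was 1.88-fold higher in late than in early mice (0.91 ± 0.20, adjusted p = 0.029), and its other probe sets gave 1.39 and 1.12. It differed by 0.60 ± 0.20 between late and control mice (adjusted p = 0.189) and by -0.30 ± 0.20 between early and control mice (adjusted p = 0.421), neither of which passed.

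The call on Phka1 was close to the threshold. Leaving out late 1, 2 or 3 gave an adjusted p of 0.0545, 0.0872 or 0.0592, leaving out early 1 or 2 gave 0.0681 or 0.079, and leaving out control 2 or 3 gave 0.0579 or 0.0555, all with a difference between 0.71 and 0.98. Without early 3 the difference was 1.11 (adjusted p = 0.00261). With only the late and early arrays in the fit it was not called either (adjusted p = 0.105).

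Phkb and Phkg1 had the same order of group means without passing. Phkb stood at 12.95, 12.92 and 13.19 in the late arrays, at 11.81, 12.18 and 12.95 in the early arrays and at 12.54, 12.68 and 12.67 in the control arrays. Early 3 lay among the late values and the other early arrays below all the rest. The late minus early difference of Phkb was 0.71 ± 0.26 (adjusted p = 0.0959), and 1.03 without early 3 (adjusted p = 0.00356). Its early minus control difference was -0.32 ± 0.26 (adjusted p = 0.525), and -0.64 without early 3 (adjusted p = 0.0315). Phkg1 had the widest spread of the complex, at 12.63, 12.81 and 12.84 in late, at 9.96, 11.29 and 12.67 in early and at 12.68, 12.68 and 12.67 in control arrays. The 3 control values and early 3 were almost the same and early 1 was the lowest of the 9 arrays. Phkg1 differed by 1.45 ± 0.54 between late and early mice (adjusted p = 0.1) and by -1.37 ± 0.54 between early and control mice (adjusted p = 0.231). Without early 3 these were 2.13 (adjusted p = 0.00335) and -2.05 (adjusted p = 0.0057). Without early 1 the early minus control difference of Phkg1 was -0.70 (adjusted p = 0.511). Its other probe set gave 1.61 and -1.44 with all arrays.

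Pygm, the muscle glycogen phosphorylase that this kinase activates, followed in a smaller range. It stood at 14.42, 14.39 and 14.39 in late, at 13.52, 13.91 and 14.31 in early and at 14.41, 14.26 and 14.22 in control arrays. Its late minus early difference of 0.49 ± 0.19 (adjusted p = 0.114) was 0.69 without early 3 (adjusted p = 0.0135), and its early minus control difference was -0.39 ± 0.19 with all arrays (adjusted p = 0.308) and -0.59 without early 3 (adjusted p = 0.0349). All 4 listed breakdown genes had a positive late minus early difference (median 0.81) and a negative early minus control difference (median -0.35).

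The promoters of the 3 listed phosphorylase kinase genes are shown because these subunits had the same order of group means. Of the subunits outside the list, Phka2 had the same order and Phkg2 the reverse one, and their promoters are not shown. They are RefSeq sequences of GRCm38.p6, from 250 bases before to 50 bases after the start of the gene, written 5′ to 3′, with E-box matches (CANNTG, both strands, overlapping matches merged) in capitals. Phka1 lies at chrX:102644197-102644496 on the minus strand, Phkb at chr8:85840738-85841037 on the plus strand and Phkg1 at chr5:129879039-129879338 on the minus strand.
Phka1: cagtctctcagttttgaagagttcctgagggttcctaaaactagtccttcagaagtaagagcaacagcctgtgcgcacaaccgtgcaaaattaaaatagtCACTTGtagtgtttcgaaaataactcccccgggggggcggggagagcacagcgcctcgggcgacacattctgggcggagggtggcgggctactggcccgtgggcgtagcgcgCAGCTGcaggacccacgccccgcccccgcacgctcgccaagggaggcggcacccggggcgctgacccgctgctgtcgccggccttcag
Phkb: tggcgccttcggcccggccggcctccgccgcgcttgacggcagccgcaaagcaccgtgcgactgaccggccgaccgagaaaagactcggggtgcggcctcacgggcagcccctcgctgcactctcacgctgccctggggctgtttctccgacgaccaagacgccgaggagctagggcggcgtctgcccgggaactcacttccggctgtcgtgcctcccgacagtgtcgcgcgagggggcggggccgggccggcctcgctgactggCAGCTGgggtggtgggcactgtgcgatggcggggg
Phkg1: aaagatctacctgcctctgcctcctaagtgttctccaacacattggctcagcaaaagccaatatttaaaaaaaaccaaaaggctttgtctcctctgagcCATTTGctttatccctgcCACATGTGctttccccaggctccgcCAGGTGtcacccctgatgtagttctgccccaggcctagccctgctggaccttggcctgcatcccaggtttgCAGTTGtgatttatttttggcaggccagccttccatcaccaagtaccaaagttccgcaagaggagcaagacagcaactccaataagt
These windows hold 2, 1 and 5 E-box matches in that order. An E-box, the motif bound by muscle basic helix-loop-helix factors among others, was found in 37 of 47 promoters listed for 32 of the 34 genes (78.7%), and in 72.3% of all 32851 promoters in the table. The letters ACGTG, a core of the hypoxia response motif, stood on either strand in 20 of the 47 (42.6%, against 19.6% of all), but not in the windows of Phka1, Phkb or Phkg1. A MEF2 consensus match stood in 3 of the 47, in promoters of Pfkfb1, Pgam2 and Ppp1r3a (6.38%, against 3.19%). The letters GCGTG stood in 22 of the 47 (46.8%, against 32.4%), those of Phka1 and Phkb included, and AAGGTCA, bound by oestrogen-related receptors, in 3 (6.38%, against 4.72%). All were searched on both strands. ACGTG can overlap an E-box where the letters run CACGTG. A match is a match of letters only.

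**Figure D3:**
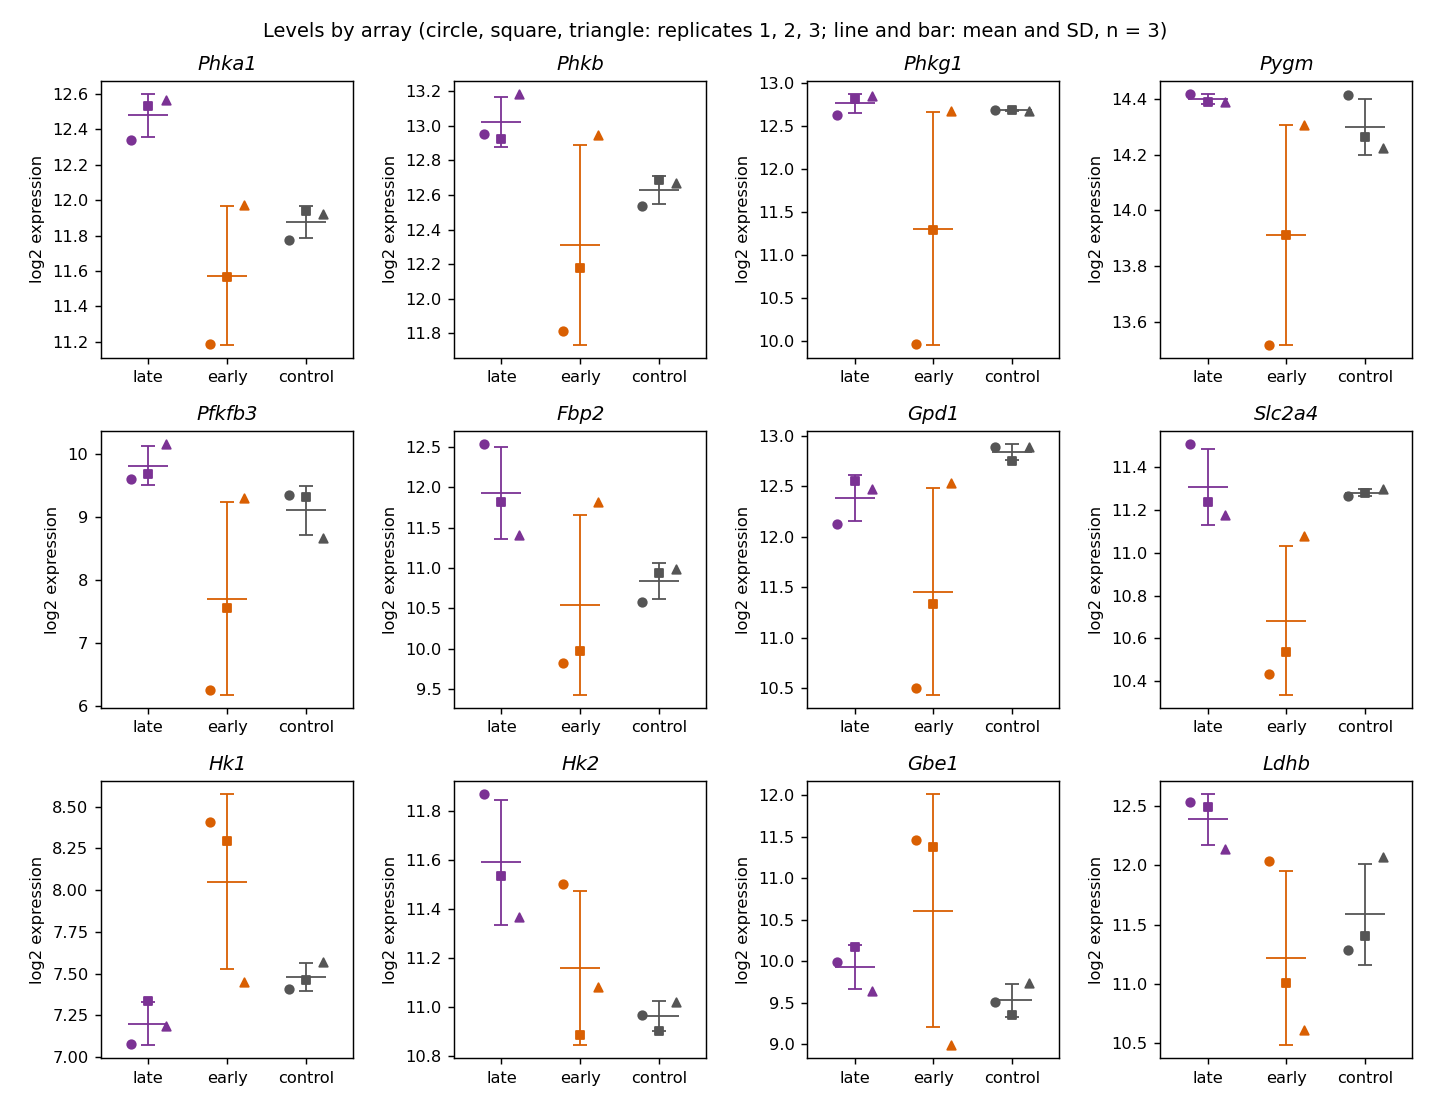
Log2 expression of 12 genes in each array (points), with the mean and SD of each group (n = 3), late left, early in the middle and control right; axes do not start at 0. In the upper row early 1 and early 2 lie below all late and control arrays for each gene, and early 3 lies at 11.97 for Phka1, 12.95 for Phkb and 12.67 for Phkg1.

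The 5 tested genes of glycogen synthesis had early minus control differences of both signs, 3 positive and 2 negative, and none was called with all arrays. Gbe1, the branching enzyme, stood at 9.99, 10.17 and 9.65 in late, at 11.46, 11.38 and 8.99 in early and at 9.50, 9.35 and 9.74 in control arrays. Early 1 and early 2 were above all other arrays and early 3 was below all of them, so the early minus control difference of 1.08 ± 0.57 did not pass (adjusted p = 0.336); without early 3 it was 1.89 (adjusted p = 0.00096). Between late and early mice Gbe1 differed by -0.68 ± 0.57 (adjusted p = 0.425), and by -1.49 without early 3 (adjusted p = 0.00178). Ugp2, which makes the UDP-glucose that glycogen is built from, was at 14.01, 14.15 and 14.06 in late, at 14.17, 14.49 and 14.04 in early and at 13.75, 13.93 and 13.99 in control arrays. Both induced groups lay above all controls, narrowly in places, and neither difference passed (0.18 ± 0.15 in late and 0.34 ± 0.15 in early against control mice, adjusted p = 0.563 and 0.269). On its other 4 probe sets the late minus control difference was 0.34 to 0.64 and the early minus control difference 0.32 to 0.75.

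Gyg, glycogenin, the primer of the glycogen particle, was on its brighter probe set likewise above all controls in both induced groups, at 14.36, 14.09 and 14.18 in late and 14.13, 14.35 and 14.02 in early, against 13.97, 13.94 and 13.92 in control arrays. These differences of 0.27 ± 0.14 and 0.22 ± 0.14 did not pass (adjusted p = 0.352 and 0.399). On the other Gyg probe set the differences were 0.38 and 0.16, and early 3, at 13.48, lay within the control range of 13.44 to 13.61. Gys1, muscle glycogen synthase, ranged from 11.66 to 11.94 over all 9 arrays and differed by at most 0.09 between groups. Pgm1, the phosphoglucomutase that links glycogen to glycolysis, stood at 12.72, 12.94 and 12.93 in late, at 12.30, 12.04 and 13.13 in early and at 13.17, 12.82 and 12.78 in control arrays. Its early minus control difference was -0.44 ± 0.27 (adjusted p = 0.394), and -0.76 without early 3 (adjusted p = 0.0212). Its late minus early difference was 0.37 ± 0.27 (adjusted p = 0.346), and 0.69 without early 3 (adjusted p = 0.0198). Early 1 and early 2 were thus the lowest arrays for Pgm1, as for the breakdown genes. Ppp1r3c, which brings protein phosphatase 1 to glycogen, differed by 0.29 ± 0.13 in late (adjusted p = 0.305) and by 0.18 ± 0.13 in early against control mice (adjusted p = 0.493).

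Glucose uptake and phosphorylation gave 3 different patterns. Slc2a4 stood at 11.51, 11.23 and 11.18 in late, at 10.43, 10.54 and 11.08 in early and at 11.27, 11.28 and 11.30 in control arrays. On this brighter probe set all 3 early arrays were below every array of the other groups. The early minus control difference was -0.60 ± 0.19 (adjusted p = 0.166) and the late minus early difference 0.62 ± 0.19 (adjusted p = 0.0606). Without early 3 they were -0.80 (adjusted p = 0.00892) and 0.82 (adjusted p = 0.00515). Without early 1 they were -0.47 (adjusted p = 0.415) and 0.50 (adjusted p = 0.179). The other Slc2a4 probe set gave -0.53 in early against control mice, but -0.67 in late against control mice, where the brighter one gave 0.03. It gave -0.14 in late against early mice. There early 3, at 10.37, lay above every late array and above control 3, at 10.36. Neither the size in late muscle nor the direction between late and early mice is thus settled.

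Hk1, the widely expressed hexokinase, was at 7.08, 7.33 and 7.19 in late, at 8.41, 8.29 and 7.45 in early and at 7.41, 7.46 and 7.57 in control arrays. On this brighter probe set late arrays lay below all others, and early 1 and early 2 above all others. The late minus early difference was -0.85 ± 0.24 (adjusted p = 0.0518), and -1.15 without early 3 (adjusted p = 0.00137). The early minus control difference of Hk1 was 0.57 ± 0.24 (adjusted p = 0.25), and 0.87 without early 3 (adjusted p = 0.00514). Without early 1 the late minus early difference was -0.67 (adjusted p = 0.156) and the early minus control difference 0.39 (adjusted p = 0.601). The other Hk1 probe set gave -1.37 and 0.52 with all arrays. There late 3, at 4.54, lay above control 3, at 4.41, and early 3, at 3.88. The macrophage markers, 9 of 10 above the floor (Itgam below), had a summed level of 12.25 to 12.61 in late, 12.33 to 13.84 in early and 12.49 to 12.88 in control arrays, and Cd68 stood at 12.06 and 11.17 in early 1 and 2 but at 6.23 in early 3; their part in the Hk1 values was not tested. Hk2, the main hexokinase of muscle, stood at 11.87, 11.54 and 11.37 in late, at 11.50, 10.89 and 11.08 in early and at 10.97, 10.90 and 11.02 in control arrays. Every late array was above every control, by 0.63 ± 0.19 on average (1.55-fold, adjusted p = 0.171), the smallest p of the 28 genes in that comparison, and the difference did not pass.

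At the phosphofructokinase step the enzyme and its regulators differed. Pfkm, the muscle isoform, varied from 14.15 to 14.54 over all arrays. Pfkfb3, which makes the sugar bisphosphate that activates phosphofructokinase, stood at 9.60, 9.68 and 10.16 in late, at 6.25, 7.55 and 9.30 in early and at 9.34, 9.31 and 8.66 in control arrays. Late arrays were above all others, early 1 and early 2 were below all others, and early 3 was within the control range. The late minus early difference of 2.11 ± 0.63 was the largest of the 28 genes (4.32-fold, adjusted p = 0.0611). It was 2.91 without early 3 (adjusted p = 0.00201) and 1.38 without early 1 (adjusted p = 0.146). The early minus control difference was -1.40 ± 0.63 with all arrays (adjusted p = 0.279) and -2.20 without early 3 (adjusted p = 0.00863).

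Fbp2, the muscle fructose bisphosphatase, catalyses the reverse step. It stood at 12.54, 11.82 and 11.41 in late, at 9.82, 9.97 and 11.82 in early and at 10.58, 10.94 and 10.99 in control arrays. Late arrays were above all controls, early 1 and early 2 below them, and early 3 at the level of late 2. The late minus early difference was 1.39 ± 0.51 (adjusted p = 0.096), and 2.03 without early 3 (adjusted p = 0.00302). Pfkl, the liver isoform of phosphofructokinase, stood at 6.60, 8.31 and 7.35 in late, at 7.59, 7.22 and 7.46 in early and at 8.88, 7.57 and 8.25 in control arrays. It differed by -0.81 ± 0.44 from controls in late (adjusted p = 0.377) and in early mice (adjusted p = 0.344). The adipocyte markers, 5 of 6 with a probe set above the floor (Lep below), had a summed level of 15.50 to 16.05 in late, 15.17 to 15.41 in early and 15.68 to 15.95 in control arrays; their part in the Pfkl values was not tested. Pfkp, the platelet isoform, differed by at most 0.36 between groups.

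Of the 7 enzymes from aldolase to pyruvate kinase that were measured (Aldoa, Tpi1, Pgk1, Pgam1, Pgam2, Eno3 and Pkm) none was called in any comparison. All 7 had a lower mean in early than in control mice (median -0.26) and a higher mean in late than in early mice (median 0.12). All 7 also had a lower mean in late than in control mice (median -0.10), with every late array below every control for 3 of them. The other probe sets of Pgk1 gave -0.13 and -0.12 in late against early mice. Tpi1, triose phosphate isomerase, stood at 14.76, 14.80 and 14.85 in late, at 14.33, 14.68 and 14.97 in early and at 14.96, 14.94 and 14.98 in control arrays. Late arrays lay just below all controls, and early 1 was the lowest array. Pkm, the muscle form of pyruvate kinase, was the member of this group whose early arrays all lay below all controls, at 13.92, 14.04 and 14.29 against 14.36, 14.34 and 14.31, a difference of -0.26 ± 0.13 (adjusted p = 0.329). Aldoa stood between 15.81 and 15.98 in every array, near the highest value found on any probe set of an array. The 3' control probe set of Gapdh read 15.12 to 15.17 in late, 15.09 to 15.20 in early and 15.11 to 15.30 in control arrays.

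The dehydrogenases at the end of the pathway divided by isoform. Ldha, the muscle subunit of lactate dehydrogenase, ranged from 14.57 to 15.01 over all arrays. Ldhb, the heart subunit, stood at 12.53, 12.49 and 12.14 in late, at 12.03, 11.01 and 10.61 in early and at 11.28, 11.40 and 12.07 in control arrays. On this brightest probe set every late array was above all others, and early and control arrays overlapped. The late arrays were not apart on every Ldhb probe set. Early 1 lay above late 3 at 11.02 against 10.88 on one and at 11.12 against 11.05 on another. The late minus early difference was 1.17 ± 0.36 (2.25-fold, adjusted p = 0.064), and between 1.0 and 1.17 on its other 3 probe sets; it was 0.87 without early 3 and did not pass (adjusted p = 0.09), while it passed without early 1 (1.58, adjusted p = 0.0347, where 2.21% of all genes were called), and by a narrow margin after each array was centred on its median (adjusted p = 0.0498). Beside these values, the summed slow fibre level of the arrays was 16.17, 15.60 and 12.96 in late, 15.48, 14.35 and 12.16 in early and 12.89, 12.54 and 13.99 in control arrays; its part in the Ldhb values was not tested.

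Gpd1, the cytosolic glycerol phosphate dehydrogenase that passes on the reducing power of glycolysis, had the smallest p of the 28 genes in early against control mice. It stood at 12.13, 12.55 and 12.48 in late, at 10.50, 11.33 and 12.54 in early and at 12.89, 12.75 and 12.89 in control arrays. On this brightest probe set all induced arrays were below all controls, early 1 by the most. On the other passing probe set early 3, at 10.22, lay above control 3, at 10.15. The early minus control difference was -1.39 ± 0.42 (adjusted p = 0.162), and -1.93 without early 3 (adjusted p = 0.00233). Without early 1 it was -0.91 (adjusted p = 0.36). Between late and early mice Gpd1 differed by 0.93 ± 0.42 (adjusted p = 0.157), and by 1.47 without early 3 (adjusted p = 0.0046). In late against control mice it was -0.46 ± 0.42 (adjusted p = 0.613), and -1.18 on the other passing probe set of the gene, which gave -1.49 in early mice.

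**Figure D4:**
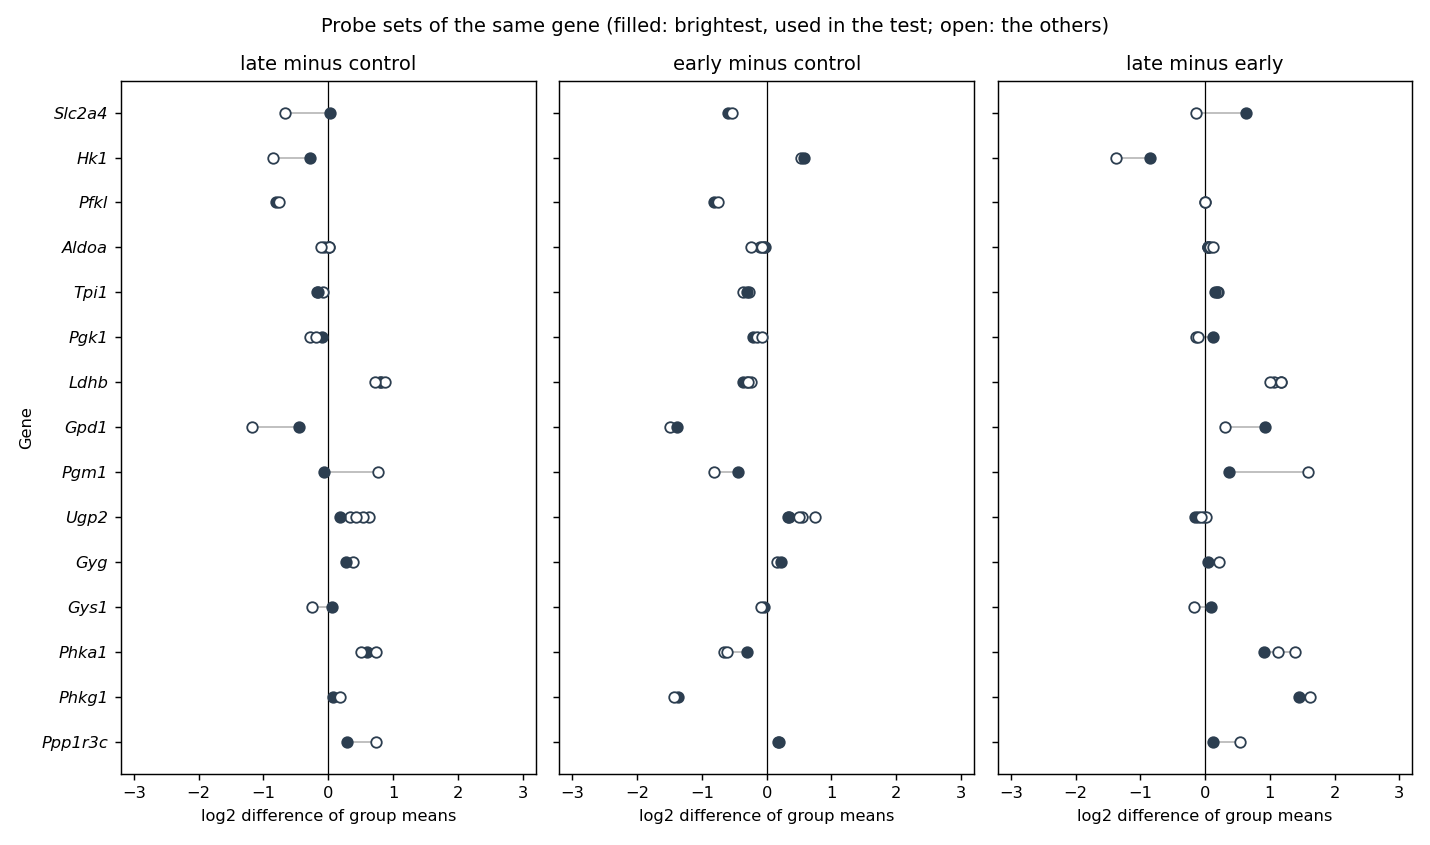
Log2 difference of group means for each passing probe set of the 15 genes that have several; filled points are the brightest probe set, used in the tests. In early minus control no gene has probe sets of opposite sign, in late minus control 4 do (Aldoa, Gys1, Pgm1 and Slc2a4) and in late minus early 5 do (Gys1, Pfkl, Pgk1, Slc2a4 and Ugp2).

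Of the other genes of the pathway, 67 in 5 lists were tested, and 0 were called by limma against controls in either induced group, where 0.206% of all genes were called in late and 1.19% in early mice. At an unadjusted p under 0.05 there were 14 of the 67 in late and 15 in early mice, where 17.3% and 18.5% of all genes were. Between late and early mice 6 were called, 5 higher and 1 lower. Tbc1d4, which holds back the glucose transporter until insulin signalling releases it, stood at 9.91, 8.99 and 8.93 in late, at 6.88, 7.0 and 7.80 in early and at 8.14, 8.69 and 8.61 in control arrays, with all late arrays above and all early arrays below the controls. It was 4.15-fold higher in late than in early mice (2.05 ± 0.33, adjusted p = 0.0132), a call lost without early 2 (adjusted p = 0.054) or with only the late and early arrays in the fit (adjusted p = 0.0674). Ppargc1a, a coactivator of mitochondrial and glucose transporter genes, was higher by 1.54 ± 0.29 (adjusted p = 0.0199; 0.0556, 0.0551 and 0.0729 without early 2, late 1 or late 2, and 0.0857 with only the late and early arrays in the fit). Prkaa2, a catalytic subunit of the energy sensor AMPK, was higher by 0.76 ± 0.14 (adjusted p = 0.0198), but the mean of its passing probe sets gave -0.28, and it was not called without early 1 or 2 or late 1 or 2 (adjusted p = 0.0599, 0.0618, 0.052 and 0.0586) or with only the late and early arrays (0.0939).

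Slc2a12, another glucose transporter, was higher in late than in early mice by 1.44 ± 0.33 (adjusted p = 0.0329), and Pdp1, the phosphatase that activates pyruvate dehydrogenase, by 0.95 ± 0.22 (adjusted p = 0.0345). Ppp1ca, a catalytic subunit of protein phosphatase 1, was lower by 0.62 in late mice (adjusted p = 0.0449), at 12.56, 12.17 and 12.37 in late, 13.20, 13.04 and 12.72 in early and 12.76, 12.70 and 12.68 in control arrays. Each of these 3 calls was lost on leaving out any array other than early 3, with adjusted p from 0.0564 to 0.101 for Slc2a12, from 0.0536 to 0.0963 for Pdp1 and from 0.0591 to 0.13 for Ppp1ca. These calls were also lost with only the late and early arrays in the fit (adjusted p = 0.11, 0.114 and 0.134 for Slc2a12, Pdp1 and Ppp1ca) and without the filter on dim probe sets (0.0717, 0.0634 and 0.0612). By list, 0 of 11 other glycolysis and gluconeogenesis enzymes, 1 of 6 transporters, 1 of 15 glycogen proteins, 1 of 11 pyruvate dehydrogenase genes and 3 of 24 regulators were called, against 11.5% of all genes. Among the enzymes the smallest p values were those of G6pc3, a glucose phosphatase (-0.88 ± 0.28, adjusted p = 0.0695), and Pck2, the mitochondrial phosphoenolpyruvate carboxykinase (-0.63 ± 0.23, adjusted p = 0.1). Without early 3 both passed, at -1.18 (adjusted p = 0.00734) for G6pc3 and -0.82 (adjusted p = 0.0267) for Pck2. Without early 1 neither did, at -0.56 (adjusted p = 0.152) for G6pc3 and -0.62 (adjusted p = 0.224) for Pck2.

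**Figure D5:**
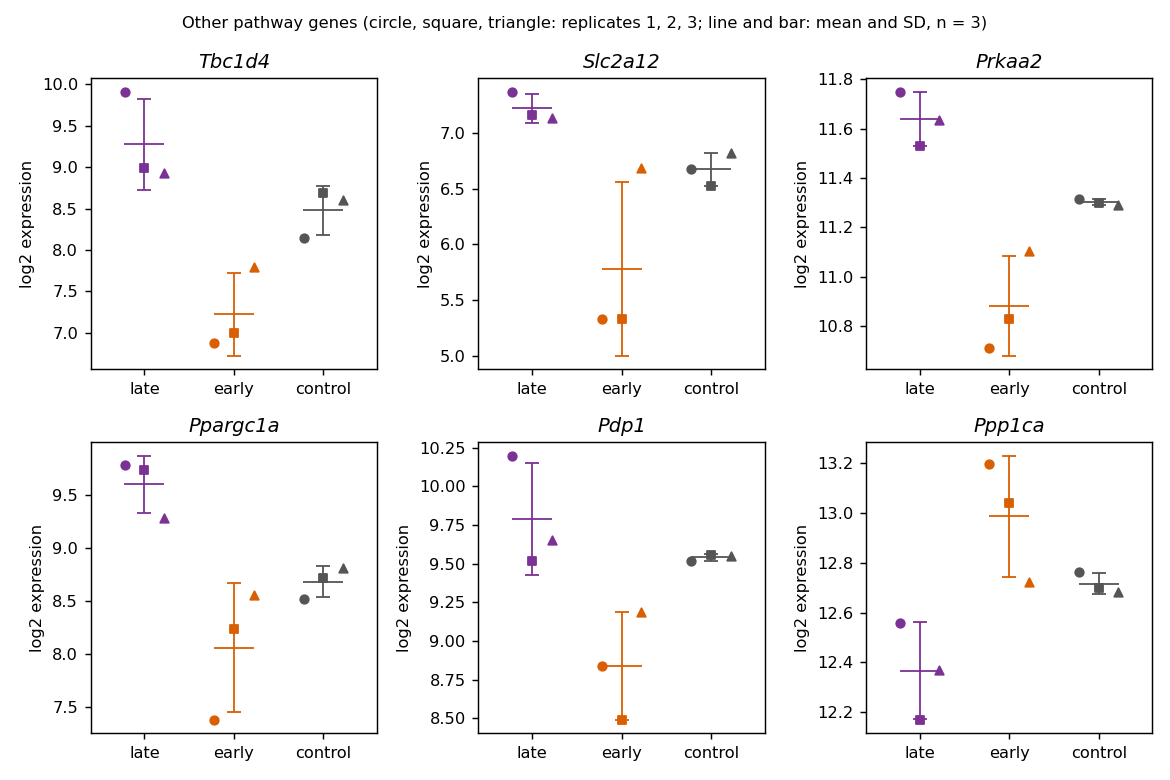
Log2 expression of the 6 other pathway genes called between late and early mice, in each array (points), with the mean and SD of each group (n = 3), late left, early in the middle and control right; axes do not start at 0. Tbc1d4 and Prkaa2 have every late array above and every early array below the control arrays, and Ppp1ca has early 3 at 12.72, within the control range.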

How the data were processed

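Expression was measured on 9 arrays, 1 per mouse. The authors deposited log2 values. GCRMA, which corrects background, makes the distributions of arrays alike and summarises probe sets, is the tool that the submitters' processing notes name, without a version. Of 45101 probe sets, 34945 outside the control sets named 1 gene and 16048 of these were above 5 in at least 3 arrays. The brightest per gene was kept, which left 9697 genes. Group means were fitted to all 9 arrays with limma 3.58.1 in R 4.3.3 (6 residual and 2.84 prior degrees of freedom), and genes were called at a Benjamini-Hochberg adjusted p under 0.05. The fit was tested on simulated data. The precision is limited by 3 arrays per group, and an exact test of 3 against 3 cannot go below p = 0.1. The labels do not say whether same-numbered mice share a litter or day, and the p values cover only the spread among these mice, part of which may be technical.

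Deviations of same-numbered late and early arrays correlated at 0.168, 0.201 and 0.16 across genes. Late and control arrays gave 0.0847, -0.165 and -0.11, and early and control arrays 0.35, 0.11 and -0.0391. Differently numbered arrays were not compared, so these values do not settle whether the numbers pair mice. The main fit used no pairing, and all its SE and p values are unpaired. The members and lists were chosen with earlier results of these data known. Named in full were members called in a comparison and otherwise the 4 with the smallest p, and of the 5 lists of other pathway genes up to 6 called, or the 2 with the smallest p. Other members were described by role. Alternatives were the filter, the arrays fitted, array weights, a replicate block, centring, the probe set per gene, shared-probe sets, the prior variance and leaving out each array with the genes kept. Promoters were credited to RefSeq.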

Additional observations from a re-analysis of the deposited data

Results flagged for a closer look

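Phka1, the muscle alpha subunit of phosphorylase kinase, differed between the induced groups by a test of the difference itself. Its late minus early difference was 0.91 (adjusted p = 0.029 by limma), made up of 0.60 in late and -0.30 in early against the same controls, neither of which passed. All 3 late arrays were above all 3 early arrays. The call was lost in 8 of 17 alternative settings, with an adjusted p of up to 0.105 by limma. Late mice were older than early mice, and age cannot be told apart from the time of induction.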

How the results depend on the processing

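The count of members called depended mainly on how early 3 and the arrays' spread were treated. With array weights 2 members were called in late and 16 in early against control mice, and 13 in late against early mice, against 0, 0 and 1; over all genes these counts were 1037, 3335 and 3534, against 20, 115 and 1119. The estimate of the weights gave a convergence warning. With only the 2 groups compared in the fit, 0 members were called in late against early mice, and 12, 61 and 38 genes in the 3 comparisons in that order. Centring the arrays on their medians gave 2 members in late against early mice. Without a filter 56 genes were called in early against control mice and 584 in late against early mice, and without shared-probe sets 12 in late against control mice. The replicate block, a pairing that was not established, gave 5 genes in late and 62 in early against control mice, and 1114 in late against early mice. It changed no call of a member (Phka1, adjusted p = 0.0295). Leaving out 1 array gave 0 to 0, 0 to 9 and 0 to 11 members, and 5 to 59, 6 to 1756 and 143 to 2959 genes, in late against control, early against control and late against early mice. The highest count was without early 3 in each case where it changed. The mean of all passing probe sets turned Prkaa2 to -0.28 in late against early mice. Over 20 named genes and comparisons, 269 of 339 alternative values kept direction and side of the threshold, 49 lost and 20 gained the call and 1 changed sign. The cause of these shifts was not tested.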
